A study of Mus musculus with 6 samples.

Results

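The miR-28, miR-151 and miR-708 genes carry microRNAs (miRNAs) that come from an old mobile element, LINE2. Their mature RNAs were taken as every mouse entry of the count table named miR-28a, miR-28c, miR-151 or miR-708, on either arm of the hairpin. This gave 7 distinct sequences among the 1963 distinct mouse sequences of the table: mmu-miR-151-3p, mmu-miR-151-5p, mmu-miR-28a-3p, mmu-miR-28a-5p, mmu-miR-708-5p, mmu-miR-708-3p and mmu-miR-28c. Reads were found for 6 of the 7, and 546 of all mouse sequences had reads. The study injected mice with the viral vector AAV9, with Cre recombinase driven by the promoter of Tnnt2, the cardiac troponin T gene used to confine expression to heart muscle. The groups are Cre-miR122, whose vector bears an added element named miR122 (3 libraries), and Cre, whose vector lacks it (3 libraries). Both groups received Cre, and all small RNA came from liver. Strain, age, time after injection and what the miR122 element encodes are not given by the labels. Counts of 1 library, Cre-miR122 replicate 2, were used, while the remaining 5 were not analysed here, so no difference between the groups was tested.

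LINE2 elements are retrotransposons that spread through the genomes of early mammals and no longer move. A copy that lies beside an inverted copy can be transcribed into a hairpin, which the enzymes Drosha and Dicer cut to a duplex of a 5p and a 3p strand. In most cases 1 strand is kept in the Argonaute protein, where bases 2 to 8 from its 5′ end, the seed, choose the target mRNAs. A shift of the 5′ end therefore changes the seed, and a shift of the 3′ end leaves it as it is.

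The genes lie in introns of protein-coding genes, on the same strand, on the mm10 (GRCm38) build. Mir151 (chromosome 15, minus strand, 73254815 to 73254882) lies in an intron of Ptk2, which encodes focal adhesion kinase, and also, on the opposite strand, in an intron of the antisense gene 1700085D07Rik. Mir28a (chromosome 16, plus strand, 24827855 to 24827940) lies in an intron of Lpp, which encodes a LIM-domain protein of focal adhesions. Mir708 (chromosome 7, plus strand, 96249424 to 96249532) lies in an intron of Tenm4, which encodes a teneurin, a transmembrane protein of the developing nervous system. Mir28c (chromosome 15, minus strand, 53614205 to 53614279) lies in an intron of Samd12. Folded with RNAfold, the 5p and 3p arms paired with each other at 18 bases in the miR-151 hairpin, 15 in miR-28a and 18 in miR-708.

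Sequences are shown for the 4 of 7 members that RefSeq's table of GRCm38.p6 holds, so that their seeds can be compared. They read 5′ to 3′ with the seed in capitals, written with T for U as in the deposited table.
mmu-miR-28a-5p: aAGGAGCTcacagtctattgag
mmu-miR-708-5p: aAGGAGCTtacaatctagctggg
mmu-miR-28a-3p: cACTAGATtgtgagctgctgga
mmu-miR-708-3p: cAACTAGActgtgagcttctag
The 5p arms of miR-28a and miR-708 had the same seed, and no other mouse entry had it. They were identical at 16 of 22 aligned bases. The 3p arms were identical at 17 of 21 bases when set off by 1 base, so their seeds differ. mmu-miR-151-5p shared an unbroken run of 16 bases with mmu-miR-28a-5p, but the run begins at base 4 of miR-151-5p and at base 2 of miR-28a-5p. This offset of 2 bases gave miR-151-5p a seed found in no other mouse entry. mmu-miR-151-3p shared 8 bases in a row with mmu-miR-708-3p and also had a seed of its own. The 5p strand of miR-151 was complementary to the 3p strand of miR-708 over 15 bases in a row. In all, AGGAGC stood within the first 8 bases of 7 mouse sequences, 0.357% of the 1963, read on the given strand. Of these, 3 were members, and the 54 reads counted over the 7 sequences were all of the members mmu-miR-28a-5p and mmu-miR-708-5p. AGGAGC is bases 2 to 7 of both. Reads were thus found for 2 of the 7 sequences, beside 546 of all 1963 mouse sequences.

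The library held 8163802 reads over distinct sequences of all species, of which 6661069 were for mouse entries. Levels are given as reads per 1000000 of these mouse reads (RPM), with exact Clopper-Pearson 95% intervals in parentheses. The intervals cover counting error only, since reads carry no molecular identifiers and there was no replicate. Of the miRNAs used as hepatocyte markers, miR-192-5p stood at 10822 RPM and miR-194-5p at 603 RPM, or 10244 and 2315 RPM with end forms. miR-122-5p stood at 35434 RPM, or 85294 RPM with end forms. The vector element bears its name, however, and reads of the vector and of the tissue cannot be told apart. Of the striated muscle markers, miR-1a-3p stood at 147164 RPM, miR-206-3p at 10337 RPM and miR-133a-3p at 137 RPM, although the label is liver. With end forms these muscle markers stood at 132702, 10951 and 1445 RPM. By mouse entries, miR-126a-3p of endothelium stood at 8911 RPM, and miR-143-3p and miR-199a-3p of stellate cells and fibroblasts at 20391 and 269. The blood markers miR-451a and miR-223-3p stood at 45.8 and 6.31 RPM. With end forms these markers stood, in the same order, at 16799, 20275, 1183, 328 and 7.84 RPM. The part of muscle and of these other cell types in the levels of this family was not tested. For scale, miR-148a-3p, the most abundant miRNA, took 578927 RPM.

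The family was a small part of the library and was led by 1 strand. Its members held 8828 reads, or 1325 RPM (1298 to 1353), which is 0.133% of mouse reads. mmu-miR-151-3p made up 91.99% of them (91.41 to 92.55). Without it the family stood at 106 RPM (98.5 to 114). In a bulk sample, fewer cells that make a miRNA and less of it per cell cannot be told apart.

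mmu-miR-151-3p had 8121 reads, or 1219 RPM (1193 to 1246), and ranked 26th among the 546 mouse sequences with reads. In order of reads it stood between miR-152-3p with 8653 and miR-103-3p with 7042, and its interval overlapped neither. Its partner mmu-miR-151-5p had 52 reads, or 7.81 RPM (5.83 to 10.2), at rank 196. In human liver cancer the 5p strand of miR-151 is known to act with focal adhesion kinase, the product of its host gene, in cell migration. That strand was the minor product here.

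mmu-miR-28a-3p was the second member, with 598 reads or 89.8 RPM (82.7 to 97.3), at rank 84. Its neighbours were miR-423-3p with 610 reads and miR-136-5p with 562, and their intervals overlapped its own. mmu-miR-28a-5p had 42 reads, or 6.31 RPM (4.54 to 8.52), at rank 213. Both strands of human miR-28 are known to act, on different targets. The near neighbours mmu-miR-1983 with 43 reads and mmu-miR-296-3p with 41 were not apart from mmu-miR-28a-5p beyond counting error.

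Few reads came from miR-708, a miRNA studied mostly in neural tissue, eye and tumours. mmu-miR-708-5p had 12 reads, or 1.80 RPM (0.931 to 3.15), at rank 292, and mmu-miR-708-3p had 3 reads, or 0.450 RPM (0.0929 to 1.32), at rank 362. Around mmu-miR-708-3p, 36 other mouse sequences had the same 3 reads, so its rank carries little information. Their nearest neighbours in reads, miR-1a-1-5p with 13 and miR-3102-3p with 11 around mmu-miR-708-5p and miR-148b-5p with 4 and miR-100-3p with 2 around mmu-miR-708-3p, all had overlapping intervals.

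mmu-miR-28c had 0 reads, which allows up to 0.450 RPM taking 3 reads as the limit, and up to 0.554 RPM by the exact interval. Its 20-nt sequence lies in 2 hairpins, Mir28c and Mir28a, because it is contained in mmu-miR-28a-5p from base 2 on. Reads of this form from either gene would look alike, and none were counted. The near copy mmu-miR-28b, which the member rule leaves out, also had 0 reads.

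**Figure D1:**
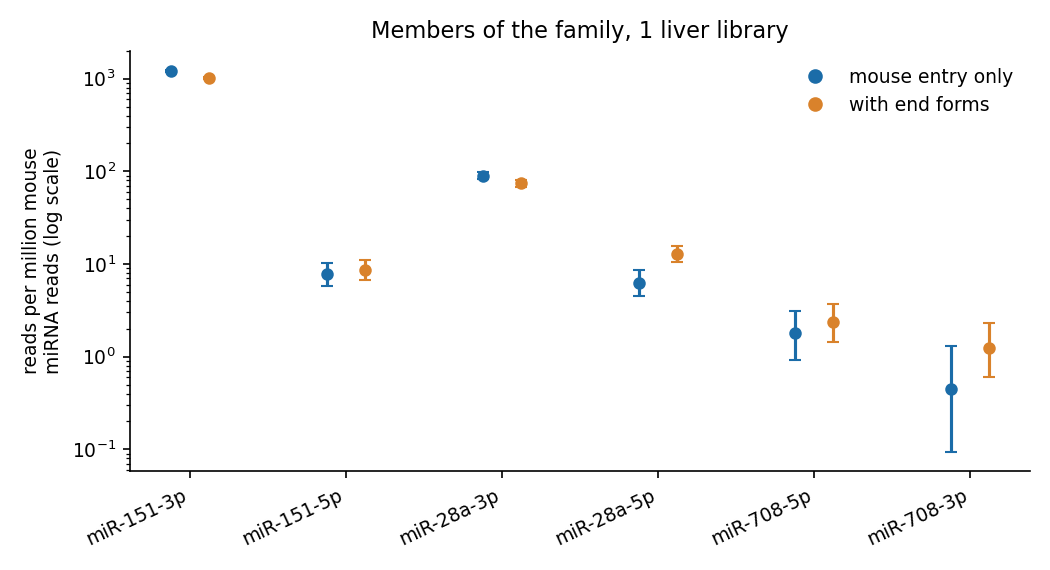
Level of each member with reads, in RPM on a log axis, for the mouse entry only and with end forms added to arm and total. Points are the values of 1 library and bars are exact 95% intervals of counting error. The 3p strands of miR-151 and miR-28a lie far above every other member, and mmu-miR-28a-5p stands at 6.31 RPM by its mouse entry and 12.95 with end forms.

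The genes differed in which strand had more reads by their mouse entries. For miR-151 the 3p strand had 156 reads per read of the 5p strand (119 to 209), and for miR-28a it had 14.2 (10.4 to 19.96). For miR-708 the order was the other way round, with 4 reads of the 5p strand per read of the 3p strand (1.08 to 22.1). Thus 2 of 3 genes had more 3p than 5p reads, and both by over 10-fold by their mouse entries. With end forms counted, the miR-28a ratio was 5.75 (4.66 to 7.15), and the 5p excess of miR-708 was 1.90 (0.841 to 4.58), an interval that includes 1. Among 235 mouse miRNA genes with at least 10 reads over both arms, 44.3% had more 3p reads and 35.3% had over 10-fold more, so a strong 3p excess was common in this library. By the share of reads on the 3p arm, 76.6% of these genes lay below miR-151, 66.0% below miR-28a and 48.1% below miR-708. The 3 genes thus stood inside the usual range and not at its edge.

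**Figure D2:**
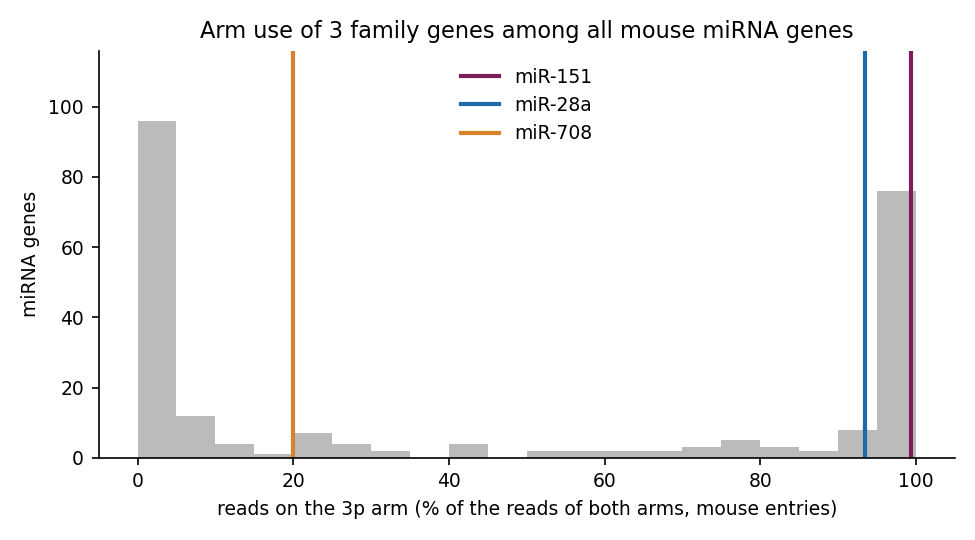
Number of mouse miRNA genes (vertical axis) by the share of reads on the 3p arm in percent (horizontal axis), for 235 genes with at least 10 reads over both arms. The lines mark miR-151 at 99.4%, miR-28a at 93.4% and miR-708 at 20%. Most genes sit near 0 or 100, and miR-708, with 15 reads, sits between.

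The genes lay further apart on their 3p strands than on their 5p strands. The 3p strands had 8121 reads in miR-151, 598 in miR-28a and 3 in miR-708, and each ratio was far from 1, with 13.6 reads of mmu-miR-151-3p per read of mmu-miR-28a-3p (12.5 to 14.8) and 199 of mmu-miR-28a-3p per read of mmu-miR-708-3p (67.9 to 969). The 5p strands had 52, 42 and 12 reads in the same genes. There the ratio of mmu-miR-151-5p to mmu-miR-28a-5p was 1.24 (0.809 to 1.91), so these 2 were not apart by their mouse entries. Both exceeded mmu-miR-708-5p, by 4.33 (2.28 to 8.92) and 3.50 (1.81 to 7.30) reads per read. Over both strands, miR-151 had 12.8 reads per read of miR-28a (11.8 to 13.9), and miR-28a had 42.7 per read of miR-708 (25.7 to 76.7). These ratios are by mouse entries, and those to miR-708 were smaller with end forms for the 3p strand and for both strands. Counted so, mmu-miR-28a-3p had 59.8 reads per read of mmu-miR-708-3p (32.3 to 125). Over both strands, miR-28a then had 24.2 per read of miR-708 (16.7 to 36.4).

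Reads with other ends were counted for entries of other species. In the arms of these genes, 8 such end forms were recorded in the table and 7 had reads, 94 in all beside the 8828 of the mouse entries. On the 5p strands all 193 reads started where the mouse entry starts, and 87 of them ended at another base. Every end form recorded for these strands has the start of the mouse entry. The mouse entry mmu-miR-28c starts 1 base later than mmu-miR-28a-5p in the same arm and had 0 reads. Other shifted starts on these strands would stay unseen. The 2 end forms of mmu-miR-28a-5p and the shorter form of mmu-miR-708-5p are shown because they hold much of their arms.
miR-28a-5p, 1 nt shorter, 45 reads: aAGGAGCTcacagtctattga
miR-28a-5p, 1 nt longer, 17 reads: aAGGAGCTcacagtctattgagt
miR-708-5p, 1 nt shorter, 7 reads: aAGGAGCTtacaatctagctgg
For mmu-miR-28a-5p the mouse entry thus held 42 of 104 reads, 40.4% (30.9 to 50.5), and the form 1 nt shorter held 43.3% (33.6 to 53.4), so neither led beyond counting error. For mmu-miR-708-5p the mouse entry held 12 of 19 reads, 63.2% (38.4 to 83.7). For mmu-miR-151-5p it held 52 of 70, 74.3% (62.4 to 84.0), with 14 reads 1 nt longer and 4 reads 1 nt shorter. Across 287 arms of the library with at least 10 reads and at least 1 end form recorded, the median share of the mouse entry was 58.9% (quartiles 20.1% and 83.3%), and these 3 arms lay between those quartiles.

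Among the end forms, a shifted 5′ end was recorded only for mmu-miR-708-3p, the member with fewest reads among those with any.
miR-708-3p, starting and ending 1 nt later, 5 reads: aACTAGACtgtgagcttctaga
miR-708-3p, ending 1 nt later, 2 reads: cAACTAGActgtgagcttctaga
With the 3 reads of the mouse entry, the shifted start made up 5 of 10 reads, 50.0% (18.7 to 81.3). The shift gives a seed whose first 6 bases are those of mmu-miR-28a-3p, so bases 2 to 7 of the shifted form match that miRNA, while the mouse entry's own do not. No mouse entry has the full 7-base seed of the shifted form. With 10 reads the share is loosely set.

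The 3p arms of miR-151 and miR-28a had 0 end forms recorded, as the entries of other species differ there from the mouse hairpin or repeat the mouse entry. Their mouse entries hold 100% of the recorded reads for that reason, and any form outside the list of entries stays unseen. This makes the arm ratios with end forms uneven, because end forms add reads to the 5p side only. Counted so, the 3p strand of miR-151 had 116 reads per 5p read (91.7 to 149). End forms also changed the order of the 5p strands. mmu-miR-151-5p then had 0.673 reads per read of mmu-miR-28a-5p (0.490 to 0.920), from 70 and 104 reads, in place of 1.24. Reads with the seed shared by miR-28a-5p and miR-708-5p numbered 54 by mouse entries and 123 with end forms, 1.38% of the 8922 family reads.

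**Figure D3:**
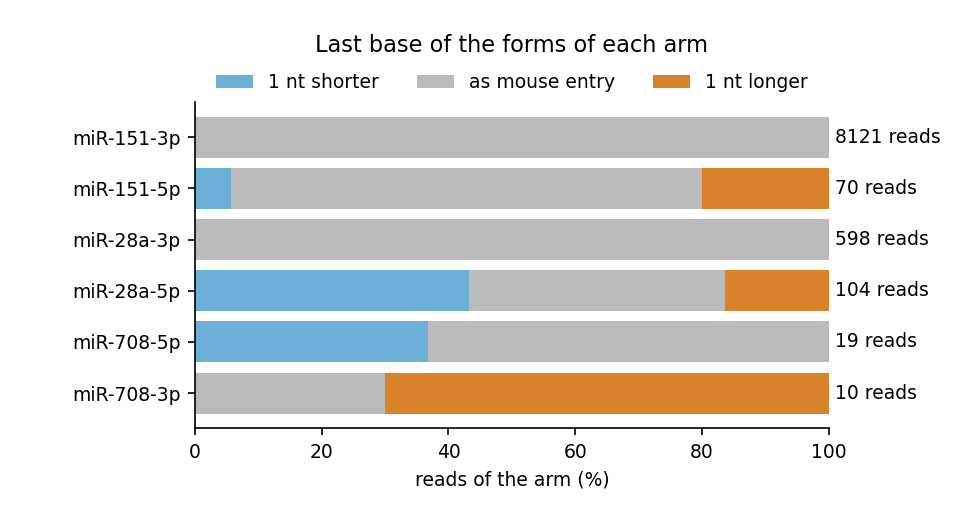
Share of the reads of each arm, in percent, by the last base of the form relative to the mouse entry, with the number of reads at the right. Grey marks the mouse entry's end, blue 1 nt shorter and orange 1 nt longer. The 5p strands of miR-28a and miR-708 have many shorter forms, and the 3p strands of miR-151 and miR-28a show 1 end because 0 other end forms are recorded for them.

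Other LINE2 miRNAs were compared by a list of 12 mouse names whose human genes have been reported to overlap LINE2 copies. The annotation used here holds no repeats, so these origins were not checked. The table had 10 of the 12 names, 4 of the 10 had mouse-entry reads, and they summed to 120 reads or 18.02 RPM (14.9 to 21.5), against 8828 reads of the 7 family members. miR-374b-5p had 79 reads, miR-421-3p 19, miR-493-3p 16 and miR-493-5p 6. With end forms the list held 1679 reads in 7 of 10 sequences, of which 1278 were for miR-493-5p and 340 for miR-374b-5p, against 8922 for the family. The family members mmu-miR-151-3p and mmu-miR-28a-3p each had more mouse-entry reads than any sequence of the list, and only mmu-miR-151-3p did so with end forms. Both members have 0 end forms recorded, so their reads could not rise by that counting.

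Members were also compared with entries that differ from them by a single base and lie in no mouse hairpin. mmu-miR-151-3p with G10A, counted from 1 at its 5′ end, is the form listed for human, cow and other mammals. It had 59 reads, 0.721% of both 21-nt forms (0.550 to 0.929), and 5 more reads were counted for a form 1 nt longer. For mmu-miR-28a-3p, the form with G17C, listed for human and rat, had 0 reads against 598 of the mouse entry, which allows up to 0.502% taking 3 reads as the limit, and up to 0.615% by the exact interval. Among 59 pairs of an abundant mouse miRNA and an entry 1 base away that is as near to no other mouse entry, 32 had reads, the median share was 0.00130%, and none was above that of miR-151-3p. The next was C12T in miR-26a-5p with 0.179% (0.151 to 0.211), followed by A1G in miR-100-5p with 0.110%. The miR-151-3p pair was picked with its values known. It is 1 of 9 G-to-A pairs in this set, 4 of which had reads.

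**Figure D4:**
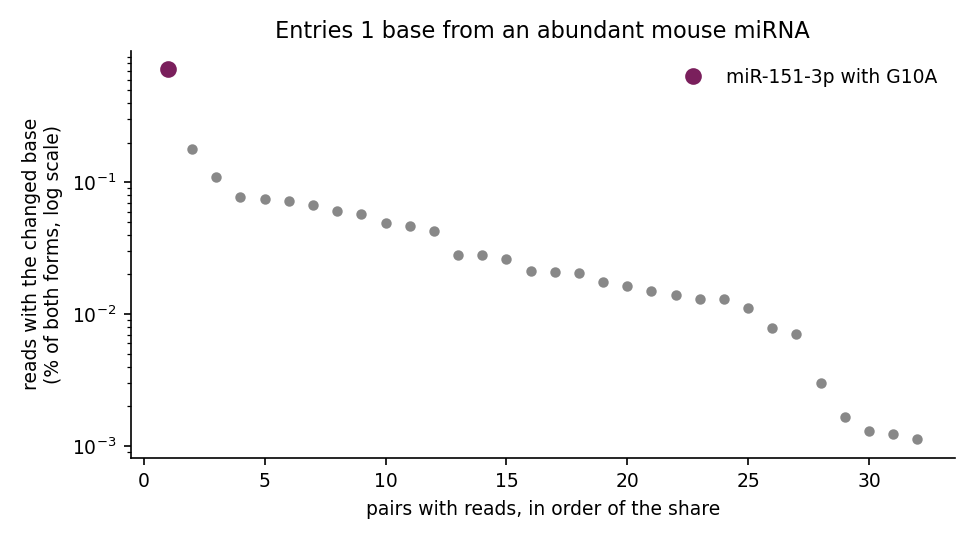
Share of reads with the changed base, in percent of both forms on a log axis, for the 32 pairs with reads, in order of that share (horizontal axis). Each point is a mouse miRNA with at least 1000 reads paired with an entry 1 base away. The coloured point is mmu-miR-151-3p with G10A at 0.721%, above the next pair at 0.179%.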

How the data were processed

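The authors deposited 1 column of raw, whole-number counts, which gives how many reads of a cleaned liver small RNA library fell on each mature miRNA of all species, per the file headers. Libraries were made by adapter ligation and PCR, per the labels' protocols, and ligation favours some RNAs. Neither the counting program nor the list's release is stated in the sources, and mm10 is named in the submitters' processing notes. Of library columns, 0 lacked a matching sample.

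The 48885 entries hold 30721 distinct sequences, each used once, since identical sequences had equal counts (0 exceptions). Only in the arm comparison over mouse miRNA genes could a sequence count more often. There a strand shared by several genes, as in Mir103-1 and Mir103-2, was counted for each of them. End forms are other-species entries found exactly in the 2202 annotated hairpins of GENCODE M21 that overlap 1 mouse sequence by at least 15 nt. With end forms the total was 8032208 reads. Ratios have exact binomial 95% intervals given the sum of both counts. Single-base pairs used mouse sequences of at least 1000 reads, equal lengths, changes before the last 2 bases and no other mouse entry as near.

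Members and lists were chosen with earlier results of these data known. Named miRNAs are the members, up to 3 end forms per arm, their neighbours in reads, sequences with the shared motif, the 4 highest of the LINE2 list and marker miRNAs. Other miRNAs named were chosen after their values were seen. The test between groups planned for several libraries was not run. Simulated data were used to test the intervals and the placing of end forms. Python 3.11.15, NumPy 2.4.6, SciPy 1.17.1, matplotlib 3.10.9 and RNAfold 2.7.2 were used.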

Additional observations from a re-analysis of the deposited data

Results flagged for a closer look

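A pair of entries outside the mouse list had more reads than the 3 that a count of 0 allows. The same limit was passed by C12T in miR-26a-5p, with 141 reads, so it does not mark this pair out. mmu-miR-151-3p with G10A had 59 reads as a 21-nt form and 5 reads as a 22-nt form, together 0.782% of these and the 8121 reads of the mouse entry (exact 95% interval 0.603 to 0.997). The table has no 22-nt entry with the mouse base, so the longer mouse form cannot be set beside it. A cause was not tested.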

How the results depend on the processing

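With all species' sequences in the total, mmu-miR-151-3p stood at 994.8, mmu-miR-28a-3p at 73.3 and the family at 1081 RPM. With end variants counted these were 1011, 74.5 and 1111, mmu-miR-28a-5p stood at 12.95, and ranks were 33 for mmu-miR-151-3p, 110 for mmu-miR-28a-3p and 227 for mmu-miR-151-5p. The 3p to 5p ratios were then 116 for miR-151 and 5.75 for miR-28a. Leaving miR-148a-3p out of the total, the family stood at 3147, mmu-miR-151-3p at 2895, mmu-miR-28a-3p at 213, mmu-miR-151-5p at 18.5, mmu-miR-28a-5p at 14.97 and mmu-miR-708-5p at 4.28 RPM. These moves follow from the reads that each alternative adds or removes. The other 33 recomputed values stayed inside the interval of the main value, among them all 6 with end forms taken by name only, all 6 with an overlap of at least 18 nt, all 6 with at least 10 reads per sequence and all 3 with the G10A forms added, an alternative chosen after seeing the data. mmu-miR-708-3p and mmu-miR-28c have no value at 10 reads or more. No paired analysis was possible because only Cre-miR122 replicate 2 had counts. Leaving out replicates and other normalizations were not run. Depth limits miR-708, whose strands rest on 12 and 3 reads.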
